A study of Mus musculus with 12 samples.

Results

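Transcripts of the cornified envelope and of late keratinocyte differentiation were examined in sorted basal keratinocytes from the hard palate of mice. The set holds 10 genes chosen by name, Ivl, Lor, Sprr1a, Sprr1b, Sbsn, Krtdap, Tgm1, Tgm3, Cnfn and Flg, and 9 of them had a row among the 23420 genes of the count table. Flg was not analysed here. Of the 9, 7 passed the filter on low counts, as did 11719 genes of the table, and Ivl and Cnfn did not pass it. The donors were 6 FVB mice of the genotype K5-tTA (+/-); tetO-H2B-GFP (+/-). Under the keratin 5 promoter, basal keratinocytes make tTA, which switches on a GFP-tagged histone, and doxycycline stops this so that divisions dilute the label. After 14 days of doxycycline, CD49f+ cells (CD49f is integrin α6, found on the basal layer) were sorted from each mouse into a GFP-HI fraction, labelled as infrequently dividing, and a GFP-LO fraction, labelled as frequently dividing. Each mouse gave 1 total RNA library per fraction from a pool of 200 to 1000 sorted cells. Age was 49 days in 5 mice and 71 days in B7F. All 12 libraries thus share the transgenes and the doxycycline, and none comes from an unlabelled mouse.

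When keratinocytes of a keratinised epithelium such as the hard palate leave the basal layer, they end as flat dead cells whose plasma membrane is backed by a cornified envelope of crosslinked protein. Involucrin (Ivl) belongs to the early scaffold, loricrin (Lor) and the small proline-rich proteins (Sprr1a, Sprr1b) are built in later, and transglutaminases (Tgm1, Tgm3) join these proteins by bonds between glutamine and lysine. Cornifelin (Cnfn) is a further envelope protein, and suprabasin (Sbsn) and keratinocyte differentiation-associated protein (Krtdap) are secreted proteins of the layers above the basal one. These genes serve as markers of suprabasal cells, so the libraries show how much of this RNA was present in cells sorted for a basal antigen and whether it differed between the fractions.

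The libraries held 6678444 to 10547665 counts, of which the pre-ribosomal RNA gene Rn45s took 31.5% to 59.8%, highest in B4M GFP-HI. Levels are given in CPM, counts per library total after scaling and multiplication to a common size. With 0 counts, a gene could still have had up to 3, or 0.258 to 0.433 CPM by library; this covers counting error only. B1M and B3M had the 4 libraries with the fewest genes detected, 12312 and 12810 in GFP-HI and 13101 and 14872 in GFP-LO, against 15474 to 19023 in the other 8. All 6 basal keratinocyte markers were tested and their sum was 13810 to 22530 CPM in GFP-HI against 16400 to 23400 in GFP-LO. Of 5 suprabasal keratinocyte markers 4 were tested, with sums of 1162 to 3511 and 1205 to 2487 CPM. Sums of the immune markers were 14.6 to 23.3 CPM in the libraries of B5M and B7F and at most 3.32 CPM in the others, with 1 of 5 markers tested. The fibroblast sums, with 3 of 6 markers tested, were 253 to 469 CPM in GFP-HI against 356 to 617 in GFP-LO. They were nearly all Dcn (327 ± 83.9 against 456 ± 92.2 CPM, SD, n = 6), the 1 marker of any list called between the fractions (log2 −0.49, edgeR adjusted p = 0.0031). Col1a1 and Col1a2 went the other way, with means of 2.88 and 2.60 CPM in GFP-HI against 0.88 and 0.85 in GFP-LO. They were not called (log2 1.555 and 1.11, edgeR adjusted p = 0.69 and 0.82). Col3a1, Lum and Pdgfra, not tested, also had higher means in GFP-HI, at 0.46, 0.19 and 0.15 CPM. Endothelial (1 of 5 tested, Emcn at 0), melanocyte (1 of 4), Merkel or taste cell (1 of 5), skeletal muscle (0 of 3) and salivary gland markers (0 of 4) summed to at most 4.91, 6.41, 16.5, 3.25 and 5.00 CPM.

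Set per kilobase of exon, so that genes of different length could be compared, Krtdap had the highest level of the 9 genes and Ivl the lowest. Over the 12 libraries Krtdap averaged 80.7 ± 47.6 CPM per kilobase (SD, n = 12), above 97.7% of the 21827 genes with a count. Sprr1a followed at 23.7 ± 13.3, Tgm3 at 22.1 ± 11.2, Sbsn at 14.8 ± 6.89 and Sprr1b at 9.84 ± 6.13 CPM per kilobase. Tgm1 (3.15 ± 1.66), Lor (2.38 ± 2.34) and Cnfn (2.08 ± 3.60) were lower, and Ivl was near 0, above 22.4% of those genes. For scale, the basal keratins Krt14 and Krt5 averaged 6378 and 2516 CPM per kilobase. Krtdap stood above Sprr1a in 12 of 12 libraries and Sprr1b above Tgm1 in 11 of 12. The other neighbours down to Lor were ordered less firmly, with Sprr1a above Tgm3 in 8 of 12 libraries. Tgm3 stood above Sbsn, and Sbsn above Sprr1b, in 9 of 12, and Tgm1 above Lor in 7 of 12. Lor was above Cnfn in 10 of 12, with both at 0 in B3M GFP-HI and Cnfn higher in B7M GFP-HI. Cnfn was above Ivl in 7 of 12, and both were at 0 in the others.

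**Figure D1:**
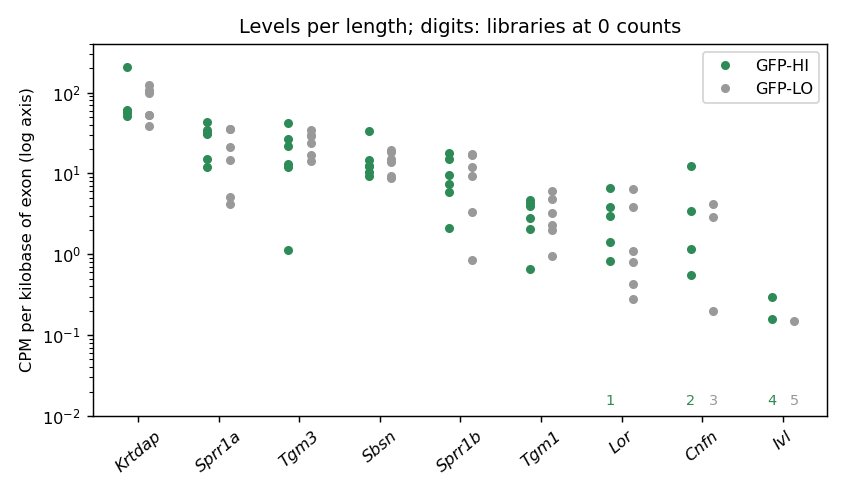
Level of the 9 genes per kilobase of exon on a log axis, 1 point per library, GFP-HI in green and GFP-LO in grey; the digits at the bottom count libraries at 0, which a log axis cannot show. Krtdap lies highest, and Ivl has 4 of 6 GFP-HI and 5 of 6 GFP-LO libraries at 0.

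By the coordinates of the table (mm10), 4 of the genes lie on the minus strand of chromosome 3 within the epidermal differentiation complex, a cluster of genes for envelope proteins. Lor spans 92080271 to 92083142, Sprr1b 92436809 to 92438779, Sprr1a 92483954 to 92485881 and Ivl 92570900 to 92573735, each with 2 annotated exons. Sbsn (30751471 to 30756134, 4 exons) and Krtdap (30787905 to 30791083, 6 exon intervals after merging) lie near each other, though not side by side, on the plus strand of chromosome 7, where Cnfn also lies (25367616 to 25369724, minus strand). Tgm3 is on chromosome 2 (130012374 to 130050399, plus strand) and Tgm1 on chromosome 14 (55700009 to 55713492, minus strand).

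RefSeq promoter windows (GRCm38.p6, 250 bases before to 50 after the start) were found for all 9 genes, with 2 windows for Tgm1. A RefSeq start equalled that of the table for 8 of the 9 genes, all but Tgm3. The letters TGANTCA, with any base at N, were searched on both strands as a loose form of the site of the AP-1 factors (Fos and Jun proteins, long tied to envelope gene transcription). They were present in 6 of the 9 genes, against 7.81% of the 32851 windows of the reference. The letters TATAAA on the forward strand were also present in 6 genes, against 8.32% of all windows. Both were present in Lor, Sprr1a, Sprr1b, Ivl and Krtdap, whose last 150 bases before the start are printed here, 5′ to 3′ along the gene, because they share these letters while their RNA levels ranged from the highest to the lowest of the set. Capitals mark matches to either motif, and the 2 motifs do not overlap in any of them.
Krtdap, chr7:30787755-30787904 (+): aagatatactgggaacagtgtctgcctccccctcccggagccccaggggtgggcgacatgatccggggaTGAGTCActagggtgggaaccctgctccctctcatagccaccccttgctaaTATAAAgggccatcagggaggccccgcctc
Sprr1a, chr3:92485882-92486031 (-): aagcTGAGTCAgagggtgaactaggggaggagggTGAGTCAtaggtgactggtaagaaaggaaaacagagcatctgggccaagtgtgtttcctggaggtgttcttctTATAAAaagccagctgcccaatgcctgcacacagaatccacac
Sprr1b, chr3:92438780-92438929 (-): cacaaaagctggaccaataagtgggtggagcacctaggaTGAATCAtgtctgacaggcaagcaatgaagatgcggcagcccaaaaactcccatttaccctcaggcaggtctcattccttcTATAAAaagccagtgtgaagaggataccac
Lor, chr3:92083143-92083292 (-): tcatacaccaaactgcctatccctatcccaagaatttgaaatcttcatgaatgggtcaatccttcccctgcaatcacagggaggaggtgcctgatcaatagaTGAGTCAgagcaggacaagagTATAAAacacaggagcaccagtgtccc
Ivl, chr3:92573736-92573885 (-): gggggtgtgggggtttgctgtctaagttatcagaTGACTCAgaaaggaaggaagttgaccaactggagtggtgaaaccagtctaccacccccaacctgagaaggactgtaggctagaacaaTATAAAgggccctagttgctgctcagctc
The TATAAA match begins 27 to 43 bases before the start in these genes, and the TGANTCA match 48 bases before it in Lor, 81 in Krtdap, 111 in Sprr1b, 116 in Ivl and 116 and 146 in Sprr1a. The middle base of that match is G or C in Krtdap, Sprr1a, Lor and Ivl, and A in Sprr1b. Sbsn holds TGANTCA 119 and 6 bases before its start without TATAAA, and Tgm3 holds TATAAA alone. Neither was present in the windows of Tgm1 and Cnfn. A match is a description of the letters, and no factor was measured at these sites.

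None of the 7 tested genes passed between the fractions. In edgeR's quasi-likelihood test with mouse as a block (Benjamini-Hochberg adjusted p under 0.05 over all genes), 0 were called higher and 0 lower in GFP-HI, where 0.469% of all tested genes were called higher and 0.0597% lower. At an unadjusted p under 0.05, 1 of the 7 was higher (Sprr1a) and 0 were lower, where 4.3% and 2.94% of all genes were. DESeq2 called 0 of the 5 to which it gave an adjusted p (none was given for Lor and Sprr1b). It called 1.02% higher and 0.196% lower of the 11719 genes with a p-value, which include genes without an adjusted p. The median log2 fold change (GFP-HI over GFP-LO) was 0.05 over the 7 genes, 4 positive and 3 negative, and −0.02 over all tested genes. No member had groups that did not overlap, as 0.196% of tested genes had, and no tested member moved the same way in all 6 mice, as 5.9% of tested genes did. Summed over the 9 genes, levels were 64.5 to 410 CPM in the GFP-HI libraries, with a median of 174, against 107 to 285 and a median of 223 in the GFP-LO libraries. In pooled cells, fewer cells with a transcript and less of it per cell cannot be told apart.

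**Figure D2:**
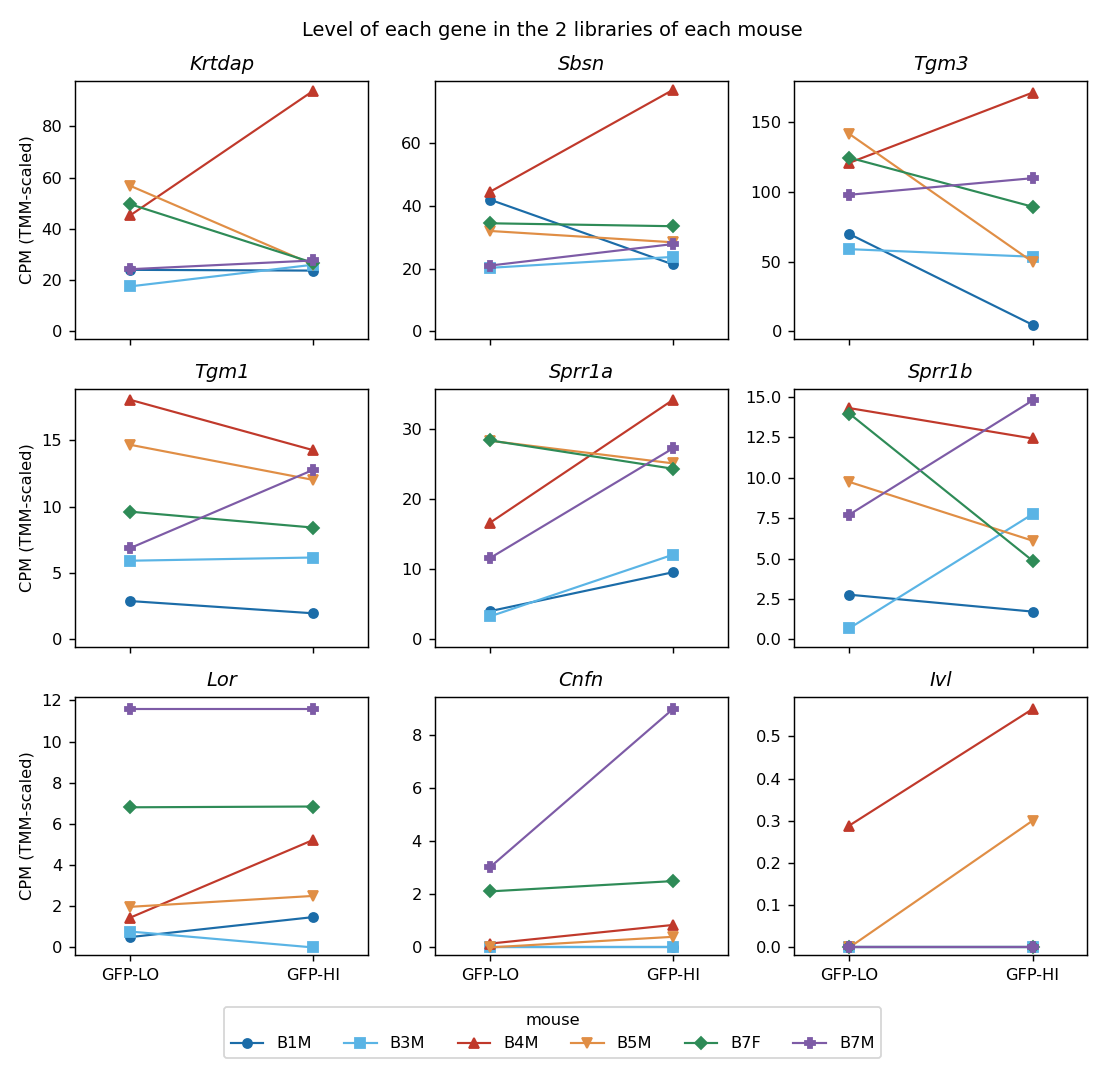
CPM of each of the 9 genes (linear axes of different scale, from 0) in the GFP-LO and GFP-HI library of each mouse, joined by a line per mouse. Lines run both up and down in all 7 tested genes, and B7M is the highest mouse for Lor and Cnfn in both fractions.

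Of the secreted suprabasal proteins, Krtdap was at 23.7 CPM in its lowest GFP-HI library, 26.4 CPM at the median and 93.9 CPM in the highest, against 17.5, 34.7 and 56.8 CPM in GFP-LO. In GFP-HI the B4M library stood alone at the top, the other 5 lay between 23.7 and 27.7 CPM, and the groups overlapped. The log2 fold change was −0.04 ± 0.25 (SE, n = 6 pairs; edgeR adjusted p = 0.98), with a 95% interval of −0.57 to 0.50. Sbsn, also on chromosome 7, had a lowest, median and highest level of 21.4, 28.2 and 77.1 CPM among the GFP-HI libraries, against 20.3, 33.3 and 44.5 among GFP-LO, and again B4M GFP-HI was the highest library. Its log2 fold change was 0.05 ± 0.19 (SE; edgeR adjusted p = 0.98; 95% interval −0.37 to 0.47). In both genes 3 mice were higher and 3 lower in GFP-HI. B4M GFP-HI also had the largest share of Rn45s (59.8%) and the largest sum of suprabasal keratinocyte markers (3511 CPM), and the part of either in these 2 values was not tested.

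Tgm3, the transglutaminase of later differentiation, had the most counts of the set, 9022 in all. In GFP-HI its lowest library was at 4.67 CPM, the median at 71.4 CPM and the highest at 171 CPM, against 58.9, 109 and 141 CPM in GFP-LO. The low value was B1M GFP-HI, at 4.67 CPM beside 69.7 CPM in the GFP-LO library of the same mouse. Tgm3 was lower in GFP-HI in 4 of 6 mice, with within-mouse log2 differences of −3.84 in B1M, −1.50 in B5M, −0.48 in B7F and −0.14 in B3M against 0.50 in B4M and 0.16 in B7M. The log2 fold change of −0.70 ± 0.55 (SE; edgeR adjusted p = 0.83; 95% interval −2.04 to 0.64) was −0.28 without B1M. In the fit without a filter on low counts Tgm3 was the 1 member called, as lower (log2 −0.73, edgeR adjusted p = 8.9e-07), where 0.206% of all genes were called lower. Its SE there was 0.12, against 0.55 in the main fit, although the within-mouse differences had an SD of 1.60. That SE understates the spread between mice, so the call is not relied on.

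Tgm1, the membrane-bound transglutaminase of the epidermis, had a lowest, median and highest level of 1.97, 10.2 and 14.3 CPM in GFP-HI, against 2.89, 8.25 and 18.1 in GFP-LO. Both libraries of B1M were the lowest of their fraction and the groups overlapped. Its log2 fold change was −0.06 ± 0.26 (SE; edgeR adjusted p = 0.98; 95% interval −0.62 to 0.50), with 2 mice higher and 4 lower in GFP-HI.

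Sprr1a, a small proline-rich envelope precursor also known as a gene of stressed and injured cells, had the smallest p of the set between the fractions. Its lowest, median and highest levels were 9.58, 24.7 and 34.2 CPM with high label, against 3.27, 14.1 and 28.4 with low label, and the groups overlapped. Sprr1a was higher in GFP-HI in B1M, B3M, B4M and B7M, by log2 1.21, 1.82, 1.03 and 1.22, and slightly lower in B5M and B7F, by −0.17 and −0.22. The log2 fold change was 0.79 ± 0.27 (SE, 1.73-fold, n = 6 pairs), with an unadjusted p of 0.0115 in edgeR and an adjusted p of 0.49, so it did not pass. Its adjusted p was 0.12 with DESeq2 and 0.051 in edgeR without a filter on low counts, where its SE was 0.22. Sprr1b, its close relative, had 1.72, 6.93 and 14.8 CPM by the same measures in GFP-HI, against 0.687, 8.73 and 14.3 in GFP-LO, and the groups overlapped over almost their whole range. Sprr1b differed by log2 0.09 ± 0.51 (SE; edgeR adjusted p = 0.98; 95% interval −1.01 to 1.19), and the value turned to −0.40 without B3M, the mouse with the largest difference (3.11). These 2 genes are related in sequence, and how multiply matching reads were counted is not known, so their single values are uncertain.

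Lor, the bulk protein of the envelope in keratinised epithelia, had 435 counts over the 12 libraries. Its lowest, median and highest levels were 0, 3.86 and 11.6 CPM for GFP-HI, against 0.503, 1.71 and 11.6 for GFP-LO, with a log2 fold change of 0.30 ± 0.58 (SE; edgeR adjusted p = 0.94; 95% interval −0.95 to 1.55). The value was 0.64 without B3M, 0.18 without B1M and −0.029 without B4M, none called. Both libraries of B7M were highest, at 11.6 CPM each, and both of B7F followed, at 6.85 and 6.81 CPM. The other 4 mice had 0 to 5.23 CPM.

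Cnfn had 163 counts and did not pass the filter. All 4 libraries of B1M and B3M were at 0, and B7M had 90 (GFP-HI) and 25 (GFP-LO), or 8.99 and 3.02 CPM. B7F had 19 and 18 counts (2.50 and 2.11 CPM), while B4M had 6 and 1 and B5M had 4 and 0. Cnfn and Lor were thus both highest in B7M and next highest in B7F, in either fraction. The labels do not say what B7, common to both codes, stands for, and the tests count B7M and B7F as separate mice. B7F was 71 days old and B7M 49 days, and a shared litter or cage was not tested. Ivl had 9 counts in all, 4 and 2 in the libraries of B4M and 3 in B5M GFP-HI, and 0 in the other 9. At most 0.565 CPM was seen, close to the ceiling for a count of 0, so no fold is given for Ivl.

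**Figure D3:**
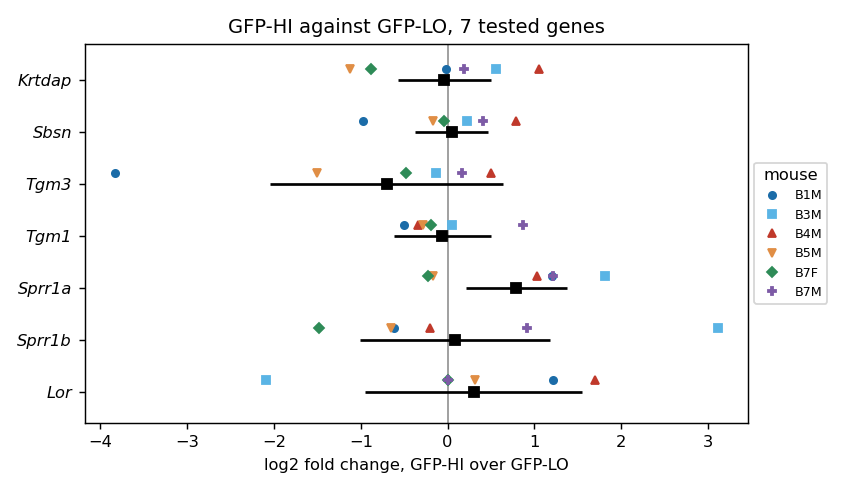
Log2 fold change (GFP-HI over GFP-LO) of the 7 tested genes; black squares are edgeR estimates with unadjusted 95% intervals, and coloured points are the differences of log2 CPM (prior count 2) within each mouse. The interval of Sprr1a, 0.21 to 1.37, is the 1 that leaves out 0, and B1M lies far to the left for Tgm3, at −3.84.

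Several members differed between mice. In an edgeR test of the mouse term, with fraction kept in the model, 3 of the 7 genes passed, Sprr1a (adjusted p = 0.019), Tgm1 (0.021) and Lor (0.045), where 9.68% of all tested genes did. At an unadjusted p under 0.05, 5 of the 7 did, with Sbsn and Krtdap added (edgeR adjusted p = 0.067 and 0.077), against 23.8% of all genes, and Sprr1b and Tgm3 did not (adjusted p = 0.30 and 0.59). The median F of the mouse term was 5.22 over the 7 genes and 1.52 over all tested genes. The SD of the 6 mouse means of log2 CPM was 1.69 for Lor, 1.06 for Tgm3, 1.05 for Sprr1b, 0.98 for Sprr1a, 0.94 for Tgm1, 0.59 for Krtdap and 0.49 for Sbsn. Which members passed depended on the mice: without B1M they were Lor and Sbsn (edgeR adjusted p = 0.0053 and 0.0016, where 12.9% of all genes passed), without B5M Krtdap and Sprr1a (0.045 and 0.022, where 5.87% did), and no member passed in all 6 fits that left out a single mouse. Sprr1a was lost without B1M or B3M (edgeR adjusted p = 0.051 and 0.059), Tgm1 without B1M, B4M or B5M (0.073, 0.080 and 0.060) and Lor without B5M, B7F or B7M (0.077, 0.095 and 0.29). DESeq2's likelihood ratio test called 5 of the 7, all but Sprr1b and Tgm3, where it called 17.3% of all genes.

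Low values of several members fell in the mice with few genes detected. The 4 libraries of B1M and B3M had 1.97 to 6.17 CPM of Tgm1, below all of the other 8 libraries (6.88 to 18.1 CPM), a pattern shared by 1.97% of tested genes. For Sprr1a they had 3.27 to 12.1 CPM against 11.6 to 34.2 CPM, for Sprr1b 0.687 to 7.75 against 4.87 to 14.8 CPM, and for Lor 0 to 1.47 against 1.45 to 11.6 CPM, in each case with a small overlap. Sbsn overlapped widely, at 20.3 to 42.1 against 21.0 to 77.1 CPM. With both mice left out, 8 members were tested and 3 passed between the remaining 4 mice, Sbsn, Cnfn and Lor (edgeR adjusted p = 3.0e-04, 3.6e-04 and 9.5e-04), while Sprr1a and Tgm1 did not (0.59 and 0.13). Of all genes, 14.7% passed in that fit. The part of library quality in the low values of B1M and B3M was not tested. The sums of basal markers in those libraries, 18360 to 22470 CPM, lay within the range of the other 8.

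**Figure D4:**
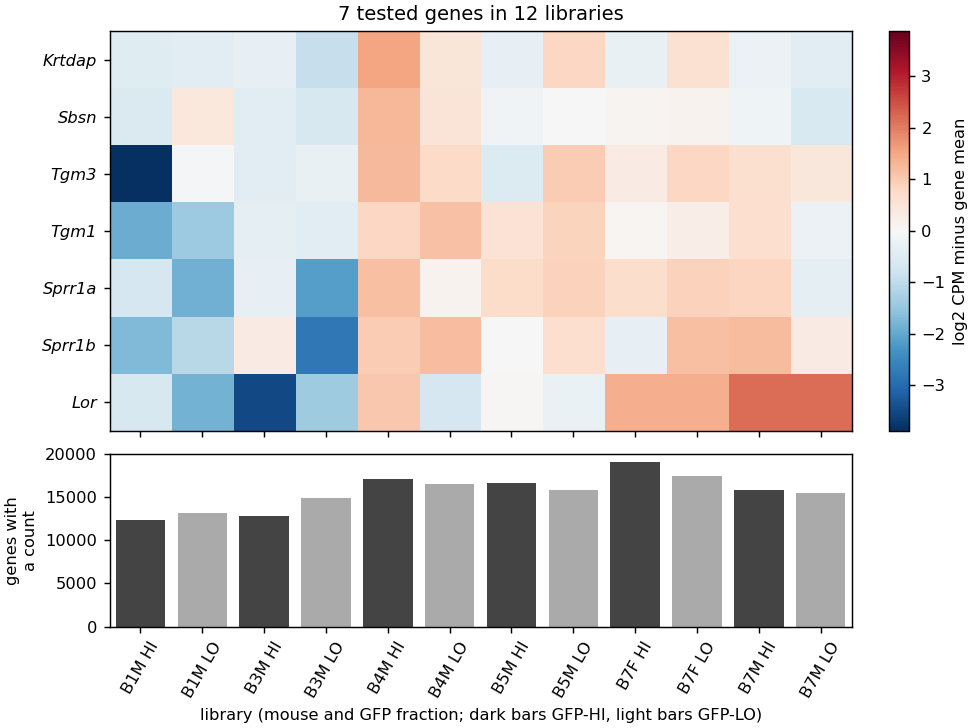
Upper panel, log2 CPM (prior count 2) of the 7 tested genes in the 12 libraries, each gene centred on its own mean, red above and blue below it; lower panel, number of genes with at least 1 count in each library. The 4 libraries of B1M and B3M are mostly blue and detect the fewest genes, B4M GFP-HI is red for all 7 genes, and Lor is highest in B7M and B7F.

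The 7 genes varied together across libraries to different degrees. Over the 12 libraries, which come in pairs from 6 mice and share depth and RNA quality with all genes, the 21 pairs of members had Pearson correlations of log2 CPM from 0.15 to 0.82, with a median of 0.53. The closest pairs were Sprr1a with Sprr1b (0.82), Krtdap with Sbsn (0.80) and the transglutaminases Tgm1 and Tgm3 (0.78), and Lor with Sbsn was the loosest (0.15). Over the 6 within-mouse differences, where levels shared by both libraries of a mouse drop out, the correlations ran from −0.75 to 0.97 and the order was another. Tgm3 with Sbsn was then closest (0.97), Sprr1a with Sprr1b was at 0.80, Krtdap with Sbsn at 0.51 and Tgm1 with Tgm3 at 0.53. Lor was negative with 5 of the 6 other members, down to −0.75 with Sprr1b. In B3M, Lor differed by −2.10 and Sprr1b by 3.11, for each gene the largest difference in size of any mouse. Lor had 0 counts in B3M GFP-HI and 9 in B3M GFP-LO, so its difference there depends on the prior count. The correlations were not computed without B3M. The 6 genes outside the set that followed its mean most closely were Smagp (r = 0.93), the amino acid transporter gene Slc6a14 (0.91), Dsc1, a desmocollin of suprabasal desmosomes (0.91), Cadps2 (0.90) and the small RNAs Snord67 (0.90) and Scarna3a (0.88). Smagp and Slc6a14 were low, at 0.614 to 4.09 and 0 to 7.49 CPM. Dsc1 ranged from 0.123 CPM in B1M GFP-HI to 64.0 CPM in B7M GFP-HI. These correlations are descriptions with no test.

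The remaining genes of the epidermal differentiation complex were mostly near 0, apart from S100 genes. Of 58 genes listed, 56 had a row and 12 were tested, 9 of them S100 genes for small calcium-binding proteins. Of the 43 others with a row, 8 had no count and 3 were tested. No gene of this list passed between the fractions, with 10 positive and 2 negative values and a median log2 fold change of 0.09. The smallest p-values were those of S100a4, S100a1, S100a14 and S100a11 (log2 0.36, 0.22, −0.11 and 0.08; edgeR adjusted p = 0.69, 0.80, 0.85 and 0.86). Hrnr and Rptn, which encode hornerin and repetin, relatives of filaggrin, were looked up after their values were seen. Hrnr, which did not pass the filter, was at 171 (GFP-HI) and 157 CPM (GFP-LO) in B7M, at 50.7 and 6.57 CPM in B7F, and at 0 to 1.85 CPM in the other 8 libraries. Rptn was at 159 and 180 CPM in B7M, at 70.6 and 5.87 CPM in B7F and at 0 to 3.47 CPM elsewhere, so Hrnr and Rptn were highest in the same mice as Lor and Cnfn. Crnn (cornulin), of the same family and also looked up after its values were seen, followed them only in part. In GFP-HI it was highest in B7F (23.7 CPM) and next in B4M, with 4.59 CPM in B7M. In GFP-LO it was highest in B7M (13.4 CPM) and next in B7F (8.92 CPM), the order of the others. Between mice, 6 of the 12 tested genes passed, Rptn among them (edgeR adjusted p = 0.023), where 9.68% of all tested genes did.

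Scaffold, crosslinking and processing genes gave 1 call between the fractions among 23 tested of 31 with a row, and 11 positive and 12 negative values (median −0.04). Calml3, which encodes a calmodulin-like protein of epithelia, fell by 0.47 on the log2 scale (92.2 ± 20.7 CPM in GFP-HI against 129 ± 38.0 in GFP-LO, SD, n = 6; SE 0.09, edgeR adjusted p = 0.027), and it was lower in 6 of 6 mice. The call was kept without B1M (edgeR adjusted p = 0.036) and lost without B3M, B4M, B5M, B7F or B7M (0.057, 0.15, 0.11, 0.077 and 0.10), with log2 values of −0.51 to −0.42, and it was lost without the mouse block (adjusted p = 0.999). Dcn, from the fibroblast list, was lower in GFP-HI by a similar amount (log2 −0.49), while Col1a1 and Col1a2 of that list were higher and not called. Any link of Dcn to the Calml3 value was not tested. Lypd3, Spink5 and Ppl, which encode a surface protein, a protease inhibitor and the envelope scaffold protein periplakin, had log2 fold changes of −0.38, 0.44 and −0.22 and did not pass (edgeR adjusted p = 0.60, 0.67 and 0.74). Of 13 tested genes for barrier lipids (20 with a row) none passed, with 8 positive and 5 negative values and a median of 0.06. Among the smallest p-values there were those of Smpd1, an enzyme that releases ceramide, Slc27a4, a fatty acid transporter, and Pnpla1 (log2 −0.48, 0.26 and 0.46; edgeR adjusted p = 0.70, 0.81 and 0.84).

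Transcription factors of late differentiation were also not called, at 0 of 23 tested genes out of 24, with 9 positive and 14 negative values and a median of −0.02. Barx2, Ovol1, Cebpb and Vdr had the smallest p-values (log2 1.22, −0.22, 0.34 and 0.21; edgeR adjusted p = 0.50, 0.69, 0.74 and 0.74). Of 16 suprabasal keratins 10 were tested and none passed, with 6 positive and 4 negative values and a median of 0.11. Krt13, Krt24, Krt17 and Krt76 led that list (log2 0.42, 0.17, −0.30 and −0.18; edgeR adjusted p = 0.65, 0.78, 0.79 and 0.80). The 13 basal keratinocyte genes were all tested without a call, with 4 positive and 9 negative values and a median of −0.05, and Krt5, Krt15, Krt14 and Itga6 led it (log2 −0.16, 0.32, −0.14 and −0.12; edgeR adjusted p = 0.42, 0.48, 0.76 and 0.77). Between mice, 8 of 10 suprabasal keratins passed, as did 6 of 23 scaffold and processing genes, 1 of 13 lipid genes, 5 of 23 transcription factors and 5 of 13 basal genes. These shares, and the 6 of 12 of the differentiation complex, are set beside the 9.68% of all genes and were not tested against it.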

How the data were processed

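The authors deposited 1 table of raw read counts per gene, not normalised, with exon intervals and exonic lengths per the file headers. The submitters' processing notes list featureCounts and DESeq2, with bcl2fastq 2.20.0, FastQC and R 3.4.1, for mm10 (GRCm38); aligner, strand setting and counting of multiply matching reads: not given in the sources used here. Groups and mice came from the sample titles, and 0 count columns were left unused. Tests used edgeR 4.0.16 under R 4.3.3 (filter by group with minimum count 10 and minimum total 15, trimmed mean of M-values scaling, robust quasi-likelihood fit, mouse as a block), checked on simulated data, with DESeq2 1.42.0 as an alternative. In the simulated data, edgeR called 42.4% of 1.5-fold, 68.2% of 2-fold and 90.9% of 4-fold changes between fractions with the right sign. A true change can thus go uncalled. Each SE is the absolute log2 fold change over the square root of F, and 95% intervals use its t distribution. CPM are scaled by these factors, and log2 CPM for single mice have a prior count of 2. The mouse codes pair the libraries: deviations from group means correlated within each mouse at 0.225 to 0.494, above any other mouse. Alternatives were other scaling factors, DESeq2, other filters, Rn45s left out, no block, and mice left out. Named list genes are those called and the 4 with the smallest p, of which 1 is not reported here. Members, lists and rules were chosen with earlier results of these data known.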

Additional observations from a re-analysis of the deposited data

Results flagged for a closer look

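Examined were 21 sets of 6 values (7 tested genes, each in GFP-HI, in GFP-LO and as within-mouse differences). In 2 of the sets 1 value lay far from the other 5. Both values came from 1 library, B4M GFP-HI. The cut-off would flag about 1 set in 20 if sets were unrelated and values normally distributed. These sets share libraries and the differences reuse the group values, so that rate is only a rough guide. Krtdap had 93.9 CPM there against 23.7 to 27.7 CPM in the other GFP-HI libraries, and the gap was 0.944 of the whole range. Sbsn was at 77.1 CPM against 21.4 to 33.6 CPM, a gap of 0.781 of the range. The GFP-LO library of the same mouse had 45.2 CPM of Krtdap and 44.5 CPM of Sbsn. With B4M left out the log2 fold changes were −0.26 for Krtdap and −0.11 for Sbsn, neither called.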

How the results depend on the processing

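No member was called higher in GFP-HI under any of the 14 alternatives, and the 1 member called lower was Tgm3 without a filter on low counts (1 against 0). Without that filter the SE was smaller than in the main fit for every tested member but Tgm1, most of all for Tgm3 (0.12 against 0.55). Calls from the fit without a filter, between fractions or between mice, carry this limit. Over all genes the higher count moved from 55 to 0 without the replicate block, 120 with DESeq2, 127 without a filter, 117 without B1M and B3M, and 29 to 81 with single mice left out (29 without B3M, 30 without B4M). The lower count moved from 7 to 0 without the block, 23 with DESeq2, 45 without a filter, 34 without B1M and B3M, and 2 to 14 with single mice left out (14 without B1M, 4 without B3M or B7M, 3 without B5M, 2 without B4M). Between mice, 3 members became 5 with DESeq2, 8 of 9 without a filter and 2 with any single mouse left out; all genes went from 1134 to 2029, 2338, 1754 without B1M and B3M, and 684 to 1527 with single mice left out (684 without B5M, 729 without B7M). Small fold changes changed sign: Lor to −0.029 without B4M; Sprr1b to −0.038 without the block, −0.40 without B3M, −0.12 without B7M and −0.33 without B1M and B3M; Sbsn to −0.11 without B4M and −0.023 without B7M; Krtdap to 0.042 without the block, 0.19 without B5M and 0.14 without B7F; Tgm1 to 0.019 without B1M and 0.0020 without B1M and B3M. The cause was not tested. Sprr1a stayed positive (0.44 to 1.02) and Tgm3 negative (−0.98 to −0.28). The 23 genes of the other lists named as called or by smallest p kept their sign in every alternative that tested them. Of those not called, Krt13, Krt15 and Spink5 were called without a filter, and Barx2 without B1M and B3M. Hrnr, Rptn, Crnn and Dsc1, named for other reasons, were not followed across the alternatives. Calml3, whose alternatives were added after seeing the data, was called in 8 of 14. Depth limits Ivl, Cnfn and Lor, with 9, 163 and 435 counts in all.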
